A study of Drosophila melanogaster with 10 samples.

Results

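The genes described here are 9 genes that the fly fat body is known to express: apolpp, Apoltp, Adh, Lsp2, Lsp1beta, Fbp1, Fbp2, fit and to. They were matched to the deposited gene table by FlyBase ID or by gene name, where apolpp (FBgn0087002) carries its older name, retinoid- and fatty acid-binding glycoprotein. All 9 were found among the 14352 genes of the table. All 9 also had a mean level above 2 RPKM in at least 1 group (RPKM is the count scaled to transcript length in kb and to the library's mapped reads) and so were among the 9365 genes tested. Of these, only to passed the filter through 1 group alone, the uninjured one.

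The fat body is the fly counterpart of liver and adipose tissue, and it secretes most proteins of the hemolymph. It loads lipid onto lipophorin particles, which are built on the apolpp protein and charged by the transfer particle that Apoltp encodes, and which carry lipid to other tissues including the nervous system. In late larvae the same tissue makes hexamerins, the serum storage proteins of the Lsp genes, and takes them up again through the Fbp1 receptor. Larval fat body cells are carried through metamorphosis as loose cells and die in the young adult, and Lsp2 is also expressed by the adult fat body. In adults the tissue expresses fit, a female-biased secreted peptide linked to satiety, and takeout (to), a carrier-like protein linked to the circadian clock, starvation and male head fat body. Adh, the enzyme that oxidizes ethanol, is among its most abundant products.

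RNA was sequenced from the ventral nerve cord (VNC), which in flies holds the place of a spinal cord. The flies were w1118, a laboratory strain with white eyes. Both groups held males and females, about 30 of each per pool, aged 3 to 10 days by the labels, and each of the 5 libraries per group came from a pool of VNCs, 60 to 80 by the labels. Injured flies lost 6 legs, 2 wings and the head, and then lay for 5 hours on a 2% agar plate at 98% humidity. Uninjured flies spent the same 5 hours without food in vials of 2% agar. Nerve injury, the loss of the head and appendages, and the housing cannot be told apart in this design. The study's methods give fewer VNCs per pool, a narrower age range and a lower agarose percentage than the labels. A deposited quality sheet gives an older age, and neither source gives the age of a single pool. Libraries are numbered here by their column in the count table, because nothing ties a column to a replicate name in the labels.

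Library totals ran from 5146470 to 6640492 counts. CPM is the level used below, a count scaled to the normalized total of its library. A gene was called at an adjusted p under 0.01 from edgeR's quasi-likelihood test over all genes tested. The p-values rest on the spread from pool to pool. The lowest count in the table was 1, which can mean that no read was seen, and no marker gene was listed at 0. All 8 neuronal markers (among them Syt1 and Gad1) were tested, and their summed level was 10280 to 12440 CPM in injured libraries and 9753 to 12770 CPM in uninjured libraries. The 9 fat body genes summed to 3375 to 5425 CPM in injured libraries and 5415 to 6489 CPM in uninjured libraries. apolpp and Adh make up most of this sum in every library, and Fbp2 and to each had a count of 1 in 2 libraries. In bulk tissue, fewer cells of a type and less RNA per cell cannot be told apart, and the tissue that gave these reads was not identified.

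After injury, 3 of the 9 genes fell and 0 rose. Those that fell were apolpp, Adh and fit, and the other 6 did not pass the test. Over all genes tested, 13.7% were called, with 7.55% higher and 6.13% lower in injured libraries. The libraries of the groups did not overlap for 2 of the 9 genes, apolpp and Adh, against 16.5% of all genes tested. The median log2 fold change of the 9 genes was -0.01, against -0.001 over all genes tested. Estimates ranged from a log2 fold change of -4.45 for to up to 2.23 for Fbp2, and to, Fbp1 and Fbp2 had the widest intervals of the 9. Leaving out uninjured library 2 or 3, or injured library 1, 3, 4 or 5, left 2 genes called in place of 3, and fit was the gene lost each time. With limma-voom, the kind of test the study used, 2 of the 9 genes were called, apolpp and Adh.

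**Figure D1:**
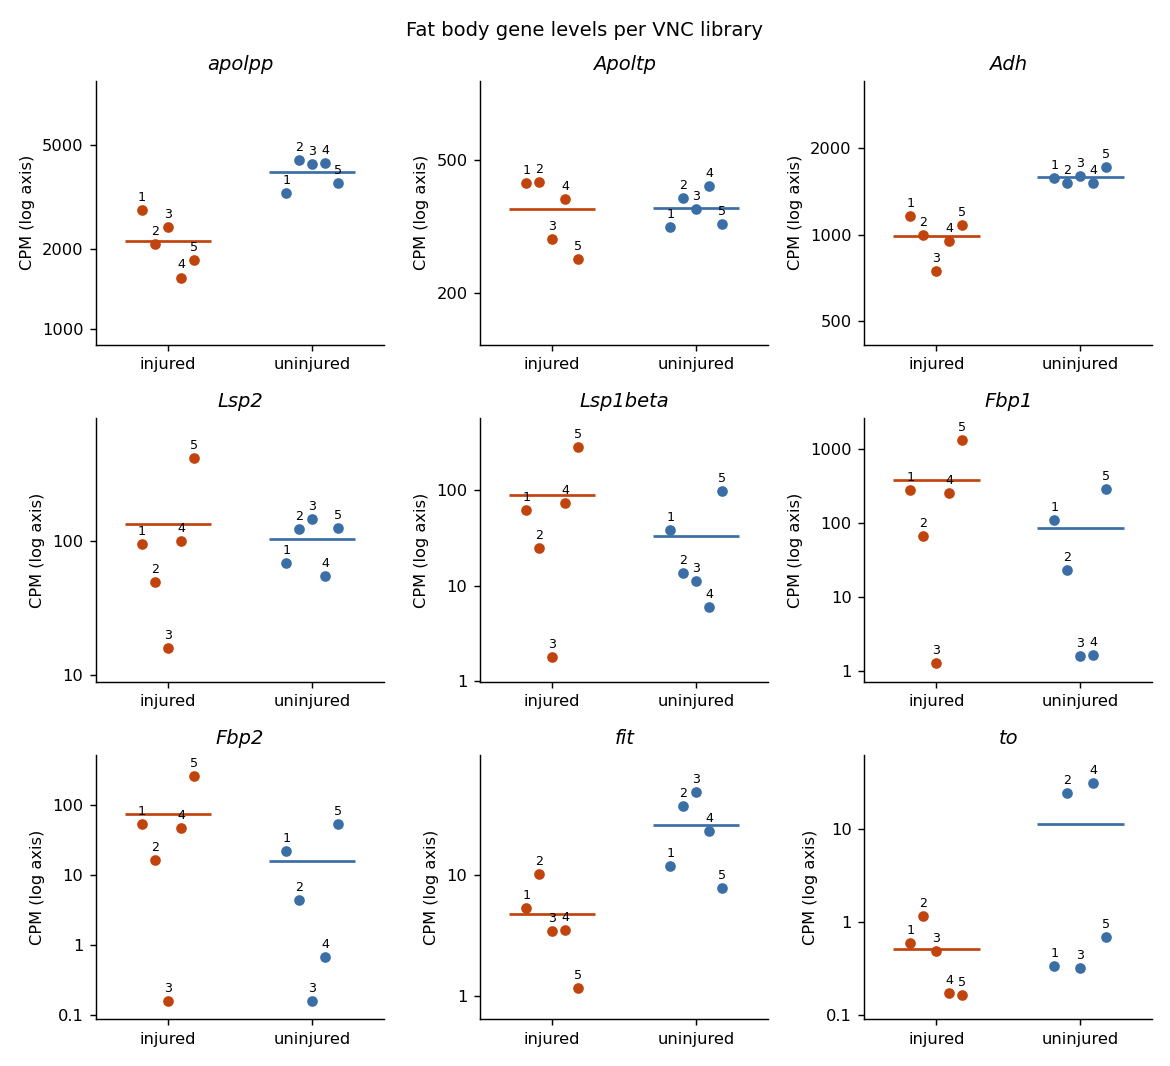
CPM (log axis) of the 9 genes in each library, with the library number above its point and the group mean as a line. Injured and uninjured points are separate for apolpp and Adh, whereas Fbp1 and Fbp2 spread widely in both groups.

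**Figure D2:**
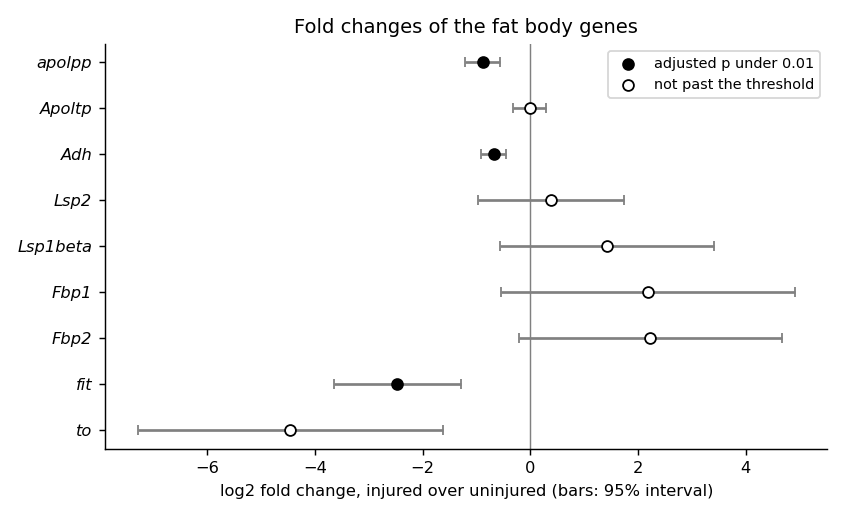
Log2 fold change of the 9 genes, injured over uninjured, with a 95% interval worked back from edgeR's test statistic. Filled points mark the 3 genes called at an adjusted p under 0.01, all to the left of 0, and the interval of Fbp1 runs from -0.54 to 4.91.

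apolpp encodes the precursor of both structural apolipoproteins of lipophorin. It had 2812, 2102, 2423, 1564 and 1819 CPM in injured libraries 1 to 5, against 3270, 4367, 4236, 4269 and 3583 CPM in uninjured libraries 1 to 5. The highest injured library lay below the lowest uninjured library. apolpp averaged 2144 ± 492 CPM in injured and 3945 ± 488.5 CPM in uninjured libraries (SD, n = 5 each). It fell by 0.88 on the log2 scale (SE 0.15, 95% interval -1.205 to -0.55, adjusted p = 0.00087 from edgeR). This call held under all 22 alternatives run, whose log2 fold changes were -1.005 to -0.79.

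Apoltp (FBgn0032136) encodes the apolipoprotein of the lipid transfer particle, which moves lipid between tissues and lipophorin. Its level was 426.5, 429, 290.3, 382 and 252 CPM in injured libraries, against 314, 383, 356, 416 and 321.5 CPM in uninjured libraries. The groups overlapped over most of their range. Its log2 fold change was -0.01 (95% interval -0.32 to 0.30, adjusted p = 0.97 from edgeR), so a change as large as that of apolpp lay outside this interval. The difference between the fold changes of apolpp and Apoltp was not itself tested.

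Of 9 other lipid carrier and lipoprotein receptor genes tested, 5 fell, 1 rose and 3 did not pass. Among all genes tested, 6.13% fell and 7.55% rose. Their median log2 fold change was -0.30, against -0.001 over all genes tested. Nplp2, which encodes a small secreted protein, had 43.4, 38.4, 27.6, 19.55 and 23.8 CPM in injured libraries. In uninjured libraries Nplp2 had 73.35, 132, 82.2, 100.5 and 73.3 CPM. All 5 injured libraries of Nplp2 were below all uninjured ones, and its log2 fold change was -1.60 (SE 0.22, adjusted p = 0.00017).

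GLaz, a glial lipocalin related to apolipoprotein D, fell by 1.34 on the log2 scale (SE 0.29, adjusted p = 0.0048). It passed the filter through the uninjured group alone, at means of 1.645 RPKM in injured and 4.404 RPKM in uninjured libraries. cv-d, a lipoprotein-like protein, fell by 0.60 (SE 0.07, adjusted p = 3.9e-05). LRP1, a lipoprotein receptor gene, had the smaller log2 fold change of -0.34, with an SE of 0.06 and an adjusted p of 0.00082. Mtp, needed to assemble lipoprotein particles, was the fifth to fall and is named after its value was seen, with an adjusted p of 0.0070 and a log2 fold change of -0.30. The lipophorin receptor gene LpR1 was the only riser of this list. It is also named after its value was seen, and averaged 423 ± 5.29 CPM in injured and 368 ± 10.8 CPM in uninjured libraries (SD, n = 5 each; log2 fold change 0.20, SE 0.04, adjusted p = 0.0055). LpR2, the other lipophorin receptor gene, had a log2 fold change of -0.15 that did not pass (adjusted p = 0.067), and NLaz, a lipocalin, one of 0.49 (adjusted p = 0.15).

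Adh (FBgn0000055) had 1161, 999.5, 747, 950.5 and 1079 CPM in injured libraries, against 1578, 1513, 1599, 1521 and 1717 CPM in uninjured libraries. No injured library reached the lowest uninjured one. Adh averaged 987 ± 156.5 CPM in injured and 1585 ± 81.8 CPM in uninjured libraries (SD, n = 5 each). It fell by 0.68 on the log2 scale (SE 0.10, 95% interval -0.91 to -0.46, adjusted p = 0.00033 from edgeR), and the call held under all 22 alternatives run. The neighboring gene Adhr, which lies in the same transcription unit, carried the same count as Adh in every library, so the deposited counts do not separate them.

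All 6 genes of the alcohol metabolism list fell, without overlap between groups, and this count includes Adhr with its duplicate counts. Of all genes tested, 6.13% fell and 16.5% did not overlap. The list's median log2 fold change was -0.92, against -0.001 over all genes tested. Sodh-1, a sorbitol dehydrogenase, had 7.56, 12.5, 7.95, 8.56 and 7.43 CPM in injured libraries. In uninjured libraries Sodh-1 had 35.9, 50.3, 29.6, 37.7 and 33.6 CPM. The highest injured value was thus far below the lowest uninjured value, and the log2 fold change was -2.10 (SE 0.17, adjusted p = 1.5e-06). The related gene Sodh-2 fell by 1.79 on the log2 scale (SE 0.13, adjusted p = 5.8e-07). Aldh, the aldehyde dehydrogenase that acts after Adh on ethanol, fell by 1.15 (SE 0.14, adjusted p = 3.8e-05).

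Some markers of hemocytes, gut and glia fell beside apolpp and Adh, and 6.13% of all genes tested fell. Of 7 hemocyte (blood cell) markers tested, 4 fell (Sr-CI, NimC1, eater and Hml) and 3 did not pass. He and lz were below the filter and not tested. lz, named after its values were seen, leaned the other way. It had 6.08, 3.09, 4.70, 9.43 and 4.29 CPM in injured libraries, against 1.87, 1.48, 2.25, 3.18 and 2.25 CPM in uninjured libraries. The 9 listed markers summed to 486 to 675 CPM in injured libraries and 739 to 1266 CPM in uninjured libraries, with no overlap. Of 5 gut enzyme genes, 4 fell (Jon25Biii, Jon99Cii, Mal-A1 and Jon99Ciii). The gut list summed to 35.8 to 75.4 CPM in injured libraries and 72.6 to 661 CPM in uninjured libraries, so the groups overlapped. The 661 CPM was uninjured library 2, and the next highest was uninjured library 3 at 172 CPM. Of 7 glial markers, 3 fell (wrapper, Indy and repo, at log2 fold changes of -0.89, -0.56 and -0.47) and 1 rose (moody, 0.66). None of 3 photoreceptor markers tested passed, and their list of 5 summed to 4.02 to 42.3 CPM in injured libraries and 23.3 to 100.4 CPM in uninjured libraries. NimC1, Jon25Biii and Jon99Ciii passed the filter through the uninjured group alone, as did all 3 photoreceptor markers tested. The part of these cells and tissues in the lower levels of apolpp, Adh and fit was not tested.

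fit (FBgn0038914) has a short transcript of 0.531 kb, so its CPM is low for its RPKM. It had 5.335, 10.2, 3.41, 3.49 and 1.16 CPM in injured libraries, against 11.7, 36.85, 48.8, 22.95 and 7.80 CPM in uninjured libraries. Only injured library 2 reached into the uninjured range, above uninjured library 5. fit fell by 2.47 on the log2 scale (SE 0.54, 95% interval -3.64 to -1.29, adjusted p = 0.0053 from edgeR). The estimate kept its sign in all 22 alternatives but was called in 10 of them, and the adjusted p was 0.0109 to 0.0165 without uninjured library 2 or 3 or without injured library 1, 3, 4 or 5.

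Because fit is female-biased, it was set beside other sex-biased genes of the same pools. The yolk protein genes Yp1, Yp2 and Yp3, made by the female fat body and ovary, summed to 2076, 3084, 2471, 1786 and 736 CPM in injured libraries. In uninjured libraries they summed to 3260, 6262, 4911, 6899 and 2300 CPM. Injured libraries 2 and 3 lay above the lowest uninjured library, and the other 3 lay below every uninjured library. Yp3 fell by 1.60 on the log2 scale (SE 0.36, adjusted p = 0.0059). Yp1 and Yp2 had log2 fold changes of -0.91 (adjusted p = 0.071) and -1.28 (adjusted p = 0.031), which did not pass. The male-specific RNAs roX1 and roX2 summed to 626 to 854 CPM in injured libraries and 654 to 817.5 CPM in uninjured libraries, and neither passed the test. Whether the pools differed in their share of females was not tested beyond these values.

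takeout was carried by a pair of libraries. It had counts of 4, 6, 3, 1 and 1 in injured libraries, against 2, 165, 2, 186 and 4 in uninjured libraries. Uninjured libraries 2 and 4, at 24.4 and 31.2 CPM, stood apart by up to 97-fold within their group, and the other 8 libraries lay between 0.165 and 1.16 CPM. Its log2 fold change was -4.45 (SE 1.31, 95% interval -7.29 to -1.62) and did not pass (adjusted p = 0.026 from edgeR). Without uninjured libraries 2 and 4, an alternative added after seeing the data, the log2 fold change was 0.15 (adjusted p = 0.90). With DESeq2 in place of edgeR the difference was called (adjusted p = 0.0040), on the same 2 high libraries. Uninjured libraries 2 and 4 also had the highest yolk protein sums (6262 and 6899 CPM) and hemocyte marker sums (1131 and 1266 CPM). The takeout family genes CG1124 and CG11854, below the filter and named after their values were seen, were highest there too. CG1124 had 31 and 40 counts there and 2 to 7 elsewhere, and CG11854 had 14 in each and 1 to 3 elsewhere.

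The takeout family, which resembles juvenile hormone binding proteins of other insects, was mostly low in the VNC. Of 22 other family members in the table, 9 passed the filter, and of these 3 fell, 0 rose and 6 did not pass. The share of all genes tested that fell was 6.13%. CG5945 fell by 2.19 on the log2 scale (SE 0.29, adjusted p = 0.00012). It had 2.43 to 5.06 CPM in injured libraries and 6.93 to 21.7 CPM in uninjured libraries, so its groups did not overlap. CG31207 fell by 1.36 (SE 0.31, adjusted p = 0.0063) and CG5867 by 1.11 (SE 0.19, adjusted p = 0.00072). CG31207 passed the filter through the uninjured group alone, at means of 1.10 RPKM in injured and 2.97 RPKM in uninjured libraries, as did CG7953 and CG8997, which were not called. CG34316, the most abundant member that did not pass, averaged 13.97 ± 2.40 CPM in injured and 14.6 ± 1.77 CPM in uninjured libraries (SD, n = 5 each; log2 fold change -0.06, adjusted p = 0.79), and CG14661 had a log2 fold change of 0.70 (adjusted p = 0.13).

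Fbp1 (FBgn0000639), the hexamerin receptor of the larval fat body, varied more between libraries of the same group than any other gene tested. It had 285, 68.1, 1.30, 254 and 1322 CPM in injured libraries, against 112, 23.2, 1.61, 1.675 and 289 CPM in uninjured libraries. The highest and lowest injured libraries differed by 1019-fold, with counts of 8006 and 8, and the groups overlapped almost fully. Its log2 fold change was 2.18 (SE 1.26, 95% interval -0.54 to 4.91, adjusted p = 0.23 from edgeR). The estimate was 0.84 without injured library 5 and 3.49 without uninjured library 5, and neither passed.

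Fbp2 (FBgn0000640) encodes a larval fat body protein of the same protein family as Adh. Its level was 53.1, 16.01, 0.162, 46.6 and 251 CPM in injured libraries, against 22.0, 4.44, 0.161, 0.670 and 52.2 CPM in uninjured libraries. Injured library 3 and uninjured library 3 each held a count of 1. The libraries took almost the order they took for Fbp1, with injured library 5 highest. The log2 fold change was 2.23 (SE 1.13, 95% interval -0.215 to 4.68, adjusted p = 0.175). It was 0.89 without injured library 5 and 3.45 without uninjured library 5, and neither passed.

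Lsp1beta (FBgn0002563) encodes a subunit of the larval serum protein 1 hexamer. It had 62.4, 24.7, 1.78, 73.85 and 283 CPM in injured libraries, against 37.95, 13.6, 11.2, 6.03 and 98.8 CPM in uninjured libraries. Again the libraries numbered 5 were the highest of their groups and injured library 3 was the lowest of all. Its log2 fold change of 1.42 (SE 0.92, 95% interval -0.57 to 3.41) did not pass (adjusted p = 0.29). It was 0.29 without injured library 5 and 2.38 without uninjured library 5, and neither passed.

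The genes of the other subunits, Lsp1alpha and Lsp1gamma, were also highest in library 5 of each group. Lsp1alpha had 59.4, 18.7, 0.4865, 59.9 and 283 CPM in injured libraries, against 23.15, 5.48, 0.964, 0.5025 and 54.1 CPM in uninjured libraries. Lsp1gamma had 56.5, 20.25, 3.89, 60.4 and 211 CPM in injured libraries, against 31.15, 8.435, 2.89, 4.52 and 75.6 CPM in uninjured libraries. Neither passed the test, with log2 fold changes of 2.34 (adjusted p = 0.15) for Lsp1alpha and 1.54 (adjusted p = 0.25) for Lsp1gamma. How the authors' counting treated reads shared by these paralogs is not given in the sources used here, so the split among Lsp1 genes is uncertain.

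Lsp2 (FBgn0002565), the hexamerin that adults also express, followed the others in part. It had 94.4, 49.6, 15.9, 99.7 and 417 CPM in injured libraries, against 68.8, 123, 147, 54.6 and 126 CPM in uninjured libraries. In the injured group it was highest in library 5 and lowest in library 3, as the Lsp1 and Fbp genes were. In the uninjured group it was highest in library 3, where Fbp1 had a count of 10. Its log2 fold change was 0.38 (SE 0.63, 95% interval -0.975 to 1.74, adjusted p = 0.70), and the sign turned to -0.68 without injured library 5.

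**Figure D3:**
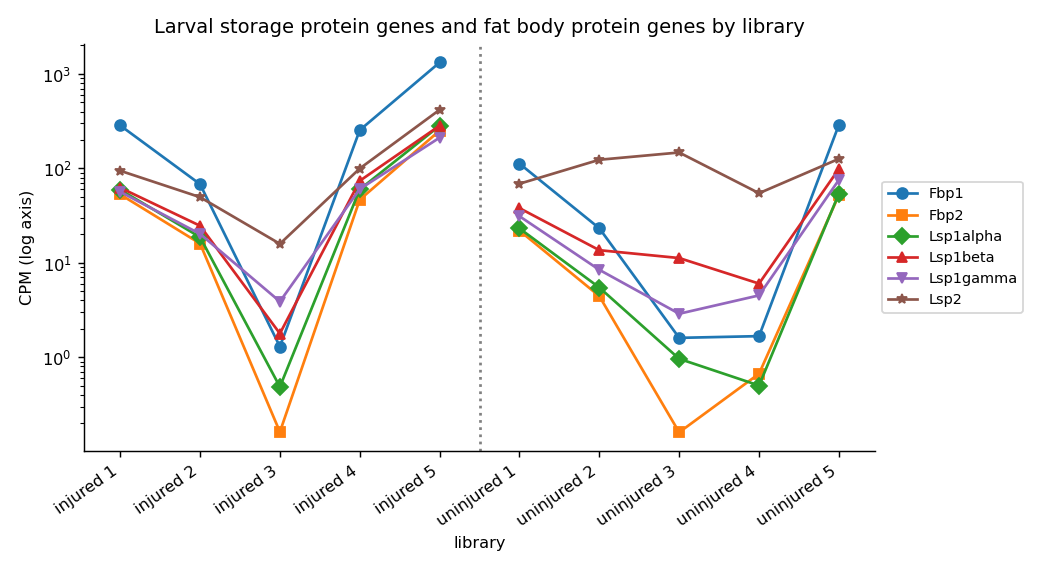
CPM (log axis) of Fbp1, Fbp2, Lsp2 and the 3 Lsp1 genes in injured libraries 1 to 5 (left) and uninjured libraries 1 to 5 (right). Lines join the points of a gene and carry no order of libraries. Fbp1, Fbp2 and Lsp1alpha run nearly parallel, while Lsp2 stays between 54.6 and 147 CPM in the uninjured libraries.

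The spread of these genes set them apart from most of the transcriptome as a description of these libraries. The within-group SD of log2 CPM was 3.48 for Fbp1, 3.13 for Fbp2 and 2.89 for Lsp1alpha, which ranked 1, 2 and 3 among the 9365 genes tested. Lsp1beta ranked 8 (SD 2.16), to ranked 11 (SD 2.07) and Lsp1gamma ranked 12 (SD 2.01). Lsp2 ranked 81 and fit 112. Apoltp, apolpp and Adh, at SDs of 0.27, 0.27 and 0.18, were much closer to the median of 0.16 over all genes tested.

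**Figure D4:**
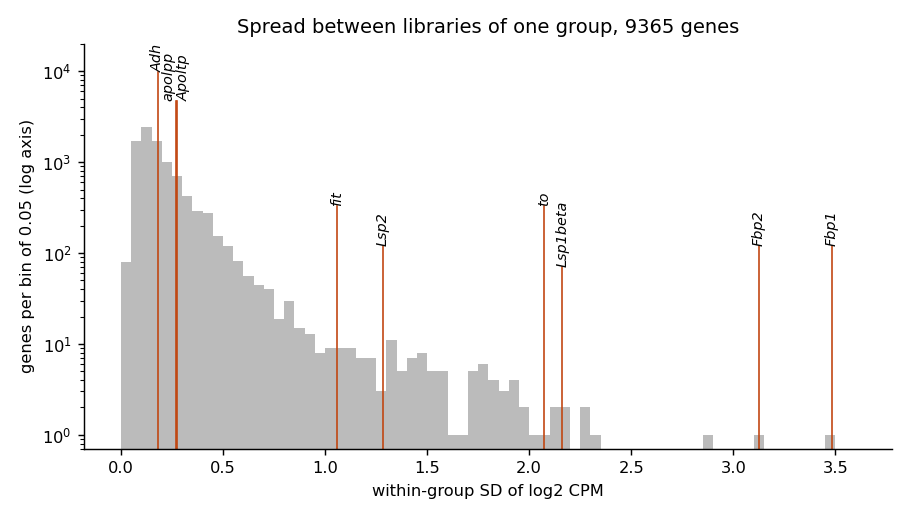
Within-group SD of log2 CPM for the 9365 genes tested (grey bars, number of genes per bin, log axis), with the 9 fat body genes as lines. Adh, apolpp and Apoltp lie among most genes, while Fbp1 (3.48) and Fbp2 (3.13) lie at the far right.

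With the group means taken off, Fbp1 and Fbp2 had a Pearson r of 0.996 across the 10 libraries, as did Fbp1 and Lsp1alpha. The r of Fbp1 was 0.98 with Lsp1gamma, 0.955 with Lsp1beta, 0.74 with Adh, 0.69 with Lsp2 and -0.51 with apolpp. These values describe 10 libraries that share their normalization. Injured library 3 held 36.6% of the within-group sum of squares of Fbp1 on this scale and injured library 5 held 14.2%. Without injured library 3 the r of Fbp1 was 0.99 with Fbp2 and with Lsp1alpha, but 0.41 with Lsp2 and 0.43 with Adh. The genes most like Fbp1 among the 9364 others were Lsp1alpha, Fbp2 and Lsp1gamma, chosen by r alone, and 10 genes had an r above 0.9. Obp99b, an odorant binding protein gene, was the gene most like Lsp1beta (r = 0.98) and the third most like Fbp2 (r = 0.985).

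Where Fbp1 had at least 100 counts, the counts of Fbp1 and Fbp2 also stayed in nearly the same proportion. In the 7 libraries with at least 100 Fbp1 counts, Fbp1 had 4.25 to 5.55 counts for each count of Fbp2 and 3.64 to 5.35 for each of Lsp1alpha. The range was 1.71 to 4.67 for Lsp1beta and 2.75 to 6.255 for Lsp1gamma. For Lsp2 it was much wider, from 0.188 to 3.17. Left out here were uninjured libraries 3 and 4 and injured library 3, with 10, 10 and 8 Fbp1 counts. There the ratio was 0.143, 0.278 and 0.727 for Lsp1beta and 0.556, 0.370 and 0.333 for Lsp1gamma, below the ranges above. It was 0.011, 0.031 and 0.082 for Lsp2 and 1.67, 3.33 and 2.67 for Lsp1alpha. For Fbp2, at counts of 1, 4 and 1, it was 10, 2.5 and 8.

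The summed level of Fbp1, Fbp2 and the 3 Lsp1 genes was 516, 148, 7.62, 495 and 2351 CPM in injured libraries. In uninjured libraries it was 226.5, 55.2, 16.9, 13.4 and 570.0 CPM. The groups overlapped, with the highest and the lowest library both in the injured group. Lsp2 was kept out of this sum, since with it included Lsp2 would be 15.1% to 67.6% of the total in injured libraries and 18.1% to 89.7% in uninjured libraries. Injured library 5 had the lowest yolk protein sum of all libraries (736 CPM). Uninjured library 4, the lowest of its group for the sum without Lsp2, had the highest yolk protein sum (6899 CPM). Injured library 3, the lowest of all libraries for the sum without Lsp2, had a yolk protein sum of 2471 CPM. That was near the 2300 CPM of uninjured library 5, the highest of its group for the sum without Lsp2. Muscle markers, none of which passed the test (0 of 9), summed to 411 to 5607 CPM in injured libraries and 1048 to 1377 CPM in uninjured libraries. They were highest in injured library 4, not in library 5, and lowest in injured library 3. The part of fat body carried along with the dissected VNC, of the age of the pools and of other tissue in these differences was not tested.

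**Figure D5:**
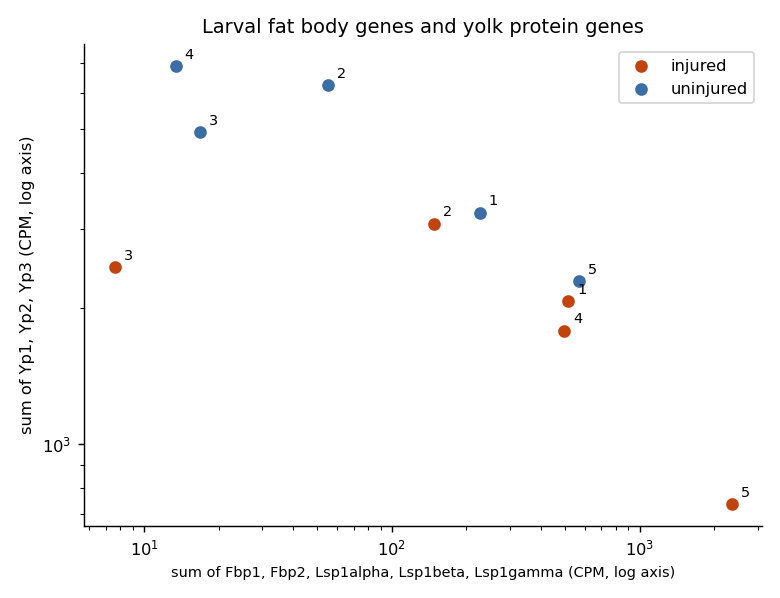
Summed CPM of Fbp1, Fbp2, Lsp1alpha, Lsp1beta and Lsp1gamma (horizontal, log axis) and of Yp1, Yp2 and Yp3 (vertical, log axis), a point for each library with its number. Injured library 5 stands at the lower right with 2351 CPM of these genes and 736 CPM of yolk protein genes. Uninjured library 4 stands at the upper left with 13.4 and 6899 CPM. Injured library 3, farthest left at 7.62 CPM, had 2471 CPM of yolk protein genes.

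Per transcript length, Adh and apolpp were the most abundant of the 9 genes in both groups. In injured libraries the mean levels were 311.5 RPKM for Adh, 125 for apolpp, 71.2 for Fbp1, 43.6 for Fbp2, 34.97 for Lsp2, 20.7 for Lsp1beta, 17.6 for Apoltp, 5.88 for fit and 0.273 for to. Adh stood above apolpp, and fit above to, without overlap between their injured libraries, and all other neighbors in this order overlapped. In uninjured libraries the order was Adh (519 RPKM), apolpp (237), fit (33.0), Lsp2 (28.5), Apoltp (18.4), Fbp1 (16.5), Fbp2 (9.87), Lsp1beta (8.16) and to (6.33). There Adh and apolpp were each separate from the next gene, and all lower neighbors overlapped.

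The genes that varied most like apolpp within groups were Dek, Vps60 and 128up, with r of 0.99, 0.98 and 0.98 over the 10 libraries, and 28 genes had an r above 0.9 with it. For fit the closest were Syb (r = 0.94), FBgn0031186 and Nipped-B, and for to they were RNaseZ (r = 0.96), FBgn0022070 and CG8915. The likeness to takeout rests on uninjured libraries 2 and 4, the only ones in which it was abundant.

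Among 10 other genes known from the fat body that were tested, 2 rose, 1 fell and 7 did not pass. Their median log2 fold change was 0.06, and 7.55% of all genes tested rose and 6.13% fell. Gnmt, which consumes S-adenosylmethionine, had 36.2, 39.15, 19.3, 46.4 and 24.3 CPM in injured libraries. In uninjured libraries Gnmt had 5.28, 3.11, 4.66, 10.4 and 7.45 CPM. Every injured library was above every uninjured library, and the log2 fold change was 2.43 (SE 0.30, adjusted p = 6.7e-05). Ilp6, an insulin-like peptide gene of the fat body and of glia, averaged 10.5 ± 2.75 CPM in injured and 5.225 ± 0.511 CPM in uninjured libraries (SD, n = 5 each; log2 fold change 0.995, SE 0.20, adjusted p = 0.0026). It passed the filter through the injured group alone, at means of 3.58 RPKM in injured and 1.865 RPKM in uninjured libraries. regucalcin, a calcium-binding protein gene, fell by 1.09 on the log2 scale (SE 0.11, adjusted p = 7.1e-06).

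The most abundant genes of this list did not pass. Tsf1, an iron carrier of the hemolymph, averaged 1749 ± 191 CPM in injured and 1906 ± 98.4 CPM in uninjured libraries (SD, n = 5 each; log2 fold change -0.12, adjusted p = 0.31). FASN1, a fatty acid synthase gene, had a log2 fold change of -0.13 (adjusted p = 0.33). The sum of the list was 3794 to 4285 CPM in injured libraries and 3998 to 4456 CPM in uninjured libraries, so it overlapped. The sum of the 9 fat body genes overlapped only slightly, but apolpp and Adh made up most of that sum. Oenocyte markers (Cyp4g1 and FASN2) summed to 94.98 to 807 CPM in injured libraries and 185 to 988 CPM in uninjured libraries, and neither passed. Some of these genes are also expressed by glia or neurons, so the list does not mark the fat body alone.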

How the data were processed

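Reads were aligned by the authors with BWA, inside GeneSifter, to fly genome release 5.57 (tool versions not given in the sources used here). Estimated counts per gene were deposited, no more than 0.00063 away from whole numbers, and these were rounded. The values the authors deposited as TPM follow the formula of RPKM and are called RPKM here. The authors' own log2 values, fold changes, adjusted p-values and correlations between libraries, and the quality sheets, were not used. The submitters' processing notes name limma with no version. Columns of per-sample values without a use here numbered 0.

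Of 14352 genes, 1 with a value that was not a number was left out. Genes with a mean above 2 RPKM in at least 1 group were tested (9365) with the quasi-likelihood test of edgeR 4.0.16 under R 4.3.3 (TMM factors 0.968 to 1.04; no covariates, 5 libraries against 5, Benjamini-Hochberg adjustment over all genes tested). Log2 CPM used a prior count of 2. DESeq2 1.42.0, limma 3.58.1 and other normalizations, filters and left-out libraries were alternatives. An annotation of a later build gave symbols to 13159 gene IDs and left 1192 without, so no coordinates are given. In that annotation apolpp overlaps Zyx, Lsp2 overlaps asRNA:CR11538, fit overlaps CG31465, and Adh overlaps osp on the opposite strand. On the same strand Fbp2 overlaps CG42847, fit overlaps asRNA:CR45046 and Adh overlaps Adhr. Whether strand was used in counting is not given, and reads from such overlaps cannot be told apart.

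The 9 genes and all lists were chosen with earlier results of these data known. Named are the 9 genes, Lsp1alpha and Lsp1gamma, in each other list up to 4 called genes of largest fold change and up to 2 of highest CPM not called, and the 3 genes most like a gene described. The list genes mgl and FASN3 were not matched.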

Additional observations from a re-analysis of the deposited data

Results flagged for a closer look

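Injured library 5 stood far above the other 4 injured libraries, by Dixon's test at the 95% level, for all 6 Lsp and Fbp genes on the CPM scale. It held 1322 CPM of Fbp1, where the next injured library held 285 CPM. It held 251 CPM of Fbp2, against 53.1 CPM in the next. For Lsp1beta the values were 283.1 and 73.85 CPM, for Lsp2 417.2 and 99.7 CPM, for Lsp1alpha 282.7 and 59.9 CPM, and for Lsp1gamma 211.4 and 60.4 CPM. The test was run on 22 groups of 5 libraries (11 genes in each of 2 conditions) and marked these 6, where chance marks about 1 in 20 groups of normally distributed values. CPM spread over such ranges does not meet that condition, and on the log2 CPM scale 0 of the 22 groups were marked, with gap shares of 0.212 to 0.438 for injured library 5 against the critical value of 0.71. The 6 genes vary together across libraries, so they are not 6 separate observations. What set this library apart was not tested.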

How the results depend on the processing

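apolpp and Adh were called under all 22 alternatives, Adh at log2 fold changes of -0.76 to -0.61. fit lost its call with limma-voom (adjusted p = 0.0283), the kind of test the study used. It also lost its call with limma on log2(RPKM + 0.5) (0.0135) or log2(RPKM + 1) (0.0132) and with no filter (0.0135). The same held for 2 alternatives added after seeing the data, a robust dispersion (0.0277) and leaving out uninjured libraries 2 and 4 (0.0232). Of the 9 genes, 4 were called with DESeq2 (takeout added), and 2 to 3 with any library left out. Over all genes tested, 973 to 1556 were called with a library left out and 1586 with DESeq2. Lsp2 turned negative with limma-voom (-0.29), log2(RPKM + 0.5) (-0.33), log2(RPKM + 1) (-0.305) and the replicate block (-0.12). Leaving out each library gave -0.68 to 0.65 for Lsp2 and -0.10 to 0.093 for Apoltp, which was 0.014 with no filter and 0.092 without uninjured libraries 2 and 4. takeout, at 0.15 without those libraries, failed the filter of edgeR's filterByExpr and has no value there.

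Whether the column number pairs the samples is not given in the labels. Over all genes tested, the deviations of same-numbered libraries correlated at -0.12, 0.21, 0.11, -0.14 and 0.30. By this measure 2 of 5 injured libraries correlated best with the uninjured library of their own number. These values cannot settle whether samples were paired. With the column number as a replicate block, 5 of the 9 genes were called, and 1170 genes in all. The genes added were takeout and Fbp2 (log2 fold change 2.27, adjusted p = 0.0037 from edgeR). Lsp1alpha (2.33, adjusted p = 0.0068) and Lsp1gamma (1.575, adjusted p = 0.0091) were also called with it. Depth limits takeout, Fbp1 and Fbp2, which had 1 to 10 counts in their lowest libraries.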
